A study of Mus musculus with 162 samples.

Results

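The brain libraries compared here, labelled BRN, came from mice that had fasted through part of the light phase and from mice in the fed state. Members were chosen by label: BRN samples fasted for 8 h or 12 h formed the daytime fast (5 libraries), and BRN samples at 0 h or 2 h of fasting formed the fed state (6 libraries), which makes 11 of the 18 BRN libraries and of the 162 libraries of the series. The third 8 h library, which the study left out, held 130701 counts and was not a member. The series profiled messenger RNA of 9 organs. All animals were adult C57BL/6J males, 6 fasting times were sampled with 3 animals each, and the labels number the animals so that organs of 1 mouse can be matched. All mice were killed about 1.5 to 2 h into the dark phase, so that the fasts of 8 h and 12 h had begun in the light phase, the fast of 2 h shortly before dark, and the 0 h mice had fed freely. The strain is C57BL/6J in every group, and food withdrawal was the treatment. Per the study's methods, BRN holds the telencephalon and the diencephalon, without the olfactory bulb (OB), cerebellum (CBL) and brainstem (BST), which were sequenced on their own.

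Mice eat little in the light phase, which made up most of the 8 h and 12 h fasts, and the end of each fast fell in the dark. Hunger is sensed in the hypothalamus, where neurons that make Agrp and Npy drive feeding and neurons that make Pomc and Cartpt restrain it, and where the lateral zone adds the appetite and arousal peptides Pmch and Hcrt. Since a bulk library samples fragments of all transcripts at once, any shift in the balance between long and short transcripts moves many genes together, and lists whose members are short or long move with it.

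Total counts were 9578253, 6149574 and 8869396 in the libraries at 0 h, 12108290, 10621126 and 6335608 at 2 h, 8056196 and 7714054 at 8 h, and 8250772, 3152641 and 4112883 at 12 h. A count of 3, taken as the floor, equals 0.248 to 0.952 CPM (counts scaled to a common library total) in these libraries, and floors cover counting error only. Mitochondrially encoded genes took 3.49, 6.82 and 4.31% of counts at 0 h, 7.92, 5.38 and 8.77% at 2 h, 10.1 and 10.9% at 8 h and 7.43, 12.2 and 6.51% at 12 h. The daytime libraries thus lay mostly above the fed ones in this share, with overlap.

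One library stood apart from the other 10. The second replicate at 12 h lay at 178 on the first principal component, which held 42.9% of the variance, while the others lay between -48.0 and 9.53. Its log2 levels correlated at 0.881 with the mean of the other 10 libraries across genes, against 0.950 to 0.985 for the others, and genes are not independent replicates. It was also the shallowest library. The third replicate at 12 h was the next farthest, at a correlation of 0.950.

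The library numbers in the labels fall into 2 series, which also divide the arms unevenly. Named A and B here in order of number, series A holds 4 fed libraries (all at 0 h and the third 2 h library) and 1 daytime library (the third 12 h library), and series B holds 2 fed and 4 daytime libraries. What the numbers stand for is not stated in the labels, and the part of the series in the results was not tested beyond the values given here.

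The first question was which genes differ in brain after a daytime fast. Genes called higher included 30 of 82 cytosolic ribosomal protein genes, 38 of 80 nuclear oxidative phosphorylation genes and 3 of 26 feeding neuropeptides, while genes called lower were mostly long and included 9 of 32 splicing regulators and 8 of 36 glutamate and GABA receptor subunits. Of 16749 genes tested by edgeR, 884 were called higher (5.28%) and 659 lower (3.93%) at a Benjamini-Hochberg adjusted p under 0.05. DEGs, which also needed an absolute log2 fold change (log2FC, daytime over fed) over 1, numbered 278, of which 156 were higher (0.931%) and the rest lower (0.728%). In 502 genes (3.0%) all 5 daytime libraries lay above all 6 fed libraries, and in 409 (2.44%) all 5 lay below. DESeq2 called 1491 higher and 1261 lower.

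These counts of called genes changed with the libraries used and with the series in the fit. Without the first 0 h library edgeR called 229 genes, without the second 0 and without the third 362, and without the first 2 h library 2833, and the count was also over 1.5 times lower without the second 2 h library (578), either 8 h library (689 and 808) or the first 12 h library (991). Where edgeR called 0 genes without the second 0 h library, 3887 had an unadjusted p under 0.05 and DESeq2 called 856 higher and 632 lower. Without the outlying 12 h library 483 genes were called higher and 580 lower, and of the genes called with it 451 and 500 were still called in the same direction. With the series as a covariate edgeR called 0 genes (2499 at an unadjusted p under 0.05), while DESeq2 called 251 higher and 173 lower. In that edgeR fit the log2FC was 1.42 for Sncg (without the covariate 1.40), 1.18 for Cldn5 (1.40) and -1.22 for Grin2b (-1.28), and medians were 0.48 for ribosomal protein genes (0.74), 0.54 for oxidative phosphorylation genes (0.71) and -0.26 for splicing regulators (-0.36). Within series B, with 2 fed and 4 daytime libraries, edgeR called 0 genes (900 at an unadjusted p under 0.05) and DESeq2 called 6 higher and 1 lower. Within series A, where the lone daytime library was assumed to vary like the fed ones, edgeR called 0 genes (2194 at an unadjusted p under 0.05), and DESeq2 was not run.

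Fold changes followed transcript length. Genes called higher had a median exonic length of 1927 bases and genes called lower one of 9337 bases, against 4081 bases for all genes tested with a length. Among 476 genes of up to 500 bases, 86 were called higher and 1 lower, with a median log2FC of 0.62. Among 2655 genes of more than 8000 bases, 6 were called higher and 409 lower, with a median log2FC of -0.32. Between these classes the medians decreased in order: 0.50 for 500 to 1000 bases, 0.33 for 1000 to 2000, 0.10 for 2000 to 4000 and -0.11 for 4000 to 8000. Across 16423 genes Spearman's rho between log2FC and exonic length was -0.452, given as a description.

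For each library, the length tilt is the slope of its log2 levels, each minus the gene's mean over the 11 libraries, on log2 exonic length. The tilt per doubling of length was 0.176, 0.127 and 0.137 at 0 h, -0.0733, 0.0795 and 0.0121 at 2 h, -0.107 and -0.0849 at 8 h and -0.0807, -0.170 and -0.0165 at 12 h. All 5 daytime libraries were negative, as was the first 2 h library alone of the fed arm. The sign depends on the libraries that set each gene's mean: over 16 BRN libraries the third 12 h library was at 0.0105. The difference between arms was -0.168 (two-sided exact permutation test over 462 splits, p = 0.00866), and leaving out 1 library at a time gave -0.148 to -0.198. Within series B the difference was -0.113, at the smallest p that its 15 splits allow (exact permutation p = 0.0667). In series A the daytime library had a lower tilt than each of the 4 fed libraries. A slope on the GC content of the transcript also differed between arms, by 0.238 per 10% GC (exact permutation p = 0.00649), and was 0.329 in the outlying library.

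**Figure D1:**
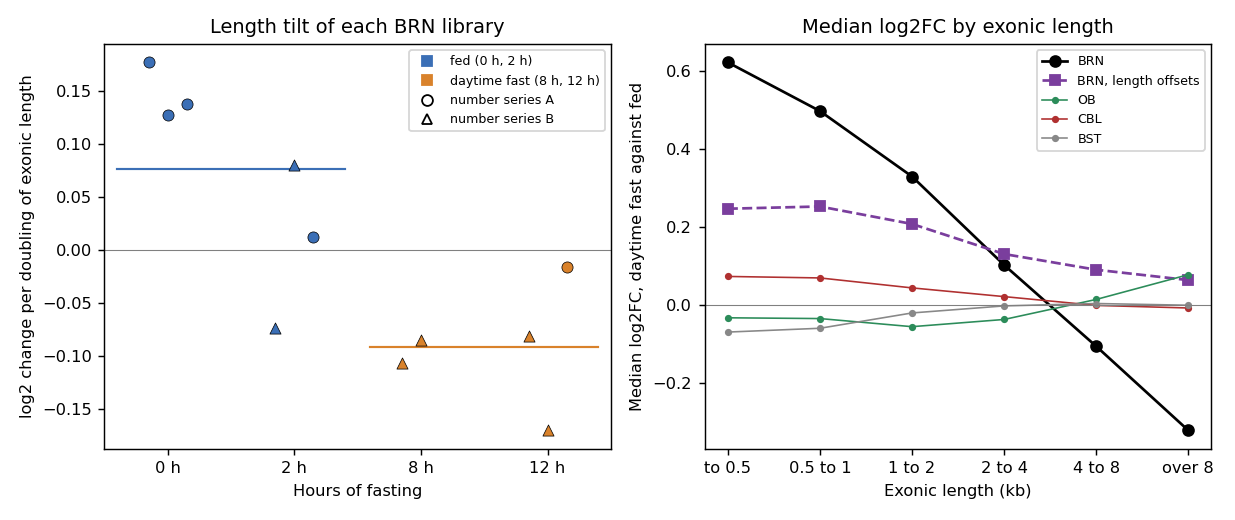
The left plot gives the length tilt of each BRN library (log2 change per doubling of exonic length) by hours of fasting, with circles for library number series A, triangles for series B and lines at the mean of each arm; the 5 daytime libraries lie between -0.170 and -0.0165. The right plot gives the median log2FC of the genes in each class of exonic length (kilobases), for BRN with and without length offsets and for the other 3 nervous system organs of the same mice; the BRN medians run from 0.62 to -0.32 without the offsets.

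Each gene was also tested with offsets that take out each library's own trend with length. With these length offsets edgeR called 691 genes higher (4.13%) and 89 lower (0.531%), and 523 and 84 of them were called in the same direction without the offsets. DESeq2 with the same offsets, an alternative chosen after seeing the data, called 1512 higher and 299 lower. The offsets moved the median log2FC of all genes from -0.03 to 0.11, so that log2FC values with offsets are read against 0.11. With each library centred on its median gene, an alternative chosen after seeing the data, 460 genes were called, 324 of them higher, at a median of 0.00. The count with offsets rested on single libraries: it was 0 without any of the 3 libraries at 0 h, the second at 2 h or the second at 8 h (3007 to 3791 genes at an unadjusted p under 0.05; DESeq2 was not run on these), 1478 without the first at 2 h and 487 without the outlying 12 h library. With each library's own tilt as a covariate edgeR called 0 genes, with 392 at an unadjusted p under 0.05, and DESeq2 was not run.

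Among the genes with the smallest p that were higher, Cldn5, a tight junction protein of blood vessel endothelium, had normalized CPM from 13.5 to 31.3 with a median of 19.6 in the fed libraries and was 58.5 and 58.97 at 8 h and 42.3, 84.9 and 42.1 at 12 h. Each daytime library lay above each fed library. Its log2FC was 1.40 ± 0.22 (SE; edgeR, Benjamini-Hochberg adjusted p = 0.0150), 1.29 with length offsets and 1.22 without the outlying library. Sncg, which encodes gamma-synuclein of neurons, ranged in normalized CPM from 4.70 to 10.98 with a median of 7.68 in the fed libraries and was 15.96 and 18.6 at 8 h and 19.9, 27.4 and 20.6 at 12 h. Here too the arms did not overlap, and the log2FC was 1.40 ± 0.22 (SE; edgeR, Benjamini-Hochberg adjusted p = 0.0150) and 1.18 with length offsets. Pcsk1n, whose product proSAAS inhibits the prohormone convertase that matures neuropeptides, had normalized CPM from 453 to 757 with a median of 625 in the fed libraries and was 989 and 945 at 8 h and 966, 1446 and 1236 at 12 h. All 5 daytime values were above the fed ones, with a log2FC of 0.83 ± 0.14 (SE; edgeR, Benjamini-Hochberg adjusted p = 0.0150) and of 0.82 with offsets.

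Agt, the angiotensin precursor made by astrocytes in brain, ranged in normalized CPM from 42.3 to 73.7 with a median of 60.998 in the fed libraries and was 115.2 and 93.4 at 8 h and 111.5, 171 and 101.2 at 12 h. The daytime libraries again lay above all fed ones, and the second at 12 h was far above the rest. The log2FC of Agt was 0.97 ± 0.17 (SE), and 0.80 without that library. The remaining 6 were Ccdc124 (0.96), the clathrin adaptor subunit Ap2s1 (0.90), the mitochondrial protease Clpp (0.90), the complex I subunit Ndufb7 (1.09), D8Ertd738e (1.02) and the secreted factor Nenf (0.96), all without overlap between arms. All 10 genes were also called higher with length offsets, at log2FC values from 0.73 for Nenf to 1.29 for Cldn5. Within series B their log2FC ranged from 0.54 for Pcsk1n to 1.45 for Sncg.

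The genes with the smallest p that were lower were long. Birc6, a giant ubiquitin ligase that restrains cell death and autophagy, had normalized CPM from 57.5 to 125.5 with a median of 88.3 in the fed libraries and was 44.8 and 48.7 at 8 h and 39.3, 37.7 and 33.6 at 12 h. The daytime libraries all lay under the fed ones. Its log2FC was -1.18 ± 0.18 (SE; edgeR, Benjamini-Hochberg adjusted p = 0.0149) and -0.53 with length offsets, and its exonic length is 25772 bases. Fat3, a giant cadherin that shapes dendrites, ranged in normalized CPM from 42.5 to 81.2 with a median of 71.9 in the fed libraries and was 25.9 and 27.6 at 8 h and 29.8, 24.1 and 36.6 at 12 h. Again no daytime library reached the fed range, and the log2FC was -1.18 ± 0.19 (SE; edgeR, Benjamini-Hochberg adjusted p = 0.0150) and -0.58 with offsets. Ogt, the enzyme that attaches O-GlcNAc to proteins in step with nutrient supply, had normalized CPM from 188 to 332 with a median of 277 in the fed libraries and was 179 and 168 at 8 h and 152, 142 and 154 at 12 h. Its arms did not overlap, and the log2FC was -0.76 ± 0.14 (SE; edgeR, Benjamini-Hochberg adjusted p = 0.0151) and -0.44 with offsets.

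Of the other 7 genes, the lipid flippase Atp11b (log2FC -0.96) was also called with length offsets (-0.63). The others were not: Rasal2 (-0.84, offsets -0.40), the calcium release channel Ryr2 (-0.91, offsets -0.21), the L-type calcium channel Cacna1c (-0.95, offsets -0.35), the NMDA receptor subunit Grin2a (-0.72, offsets -0.18), the M-current channel Kcnq3 (-0.77, offsets -0.29) and the chromatin remodeller subunit Ino80d (-1.10, offsets -0.56). Among long genes called lower both ways, listed after their values were seen, Grin2b, a subunit of NMDA receptors, had normalized CPM from 203 to 394 with a median of 302 in the fed libraries and was 129 and 172 at 8 h and 123.3, 65.8 and 116.4 at 12 h. Its daytime values lay under all fed values, and its log2FC was -1.28 ± 0.23 (SE; edgeR, Benjamini-Hochberg adjusted p = 0.0155) and -0.67 with offsets. The rest of that list were Phlpp2, a protein phosphatase (-0.88, offsets -0.57), the Integrator subunit Ints2 (-1.30, offsets -0.94), the teneurin Tenm3 (-1.13, offsets -0.78), Prrc2c (-1.01, offsets -0.52) and the neuronal splicing factor Srrm4 (-0.88, offsets -0.56). With offsets built on the length of 1 principal transcript per gene, Birc6, Fat3, Ogt, Phlpp2 and Srrm4 were not called (adjusted p = 0.0635, 0.0697, 0.0683, 0.0850 and 0.0991), and Atp11b, Grin2b, Ints2, Tenm3 and Prrc2c were.

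**Figure D2:**
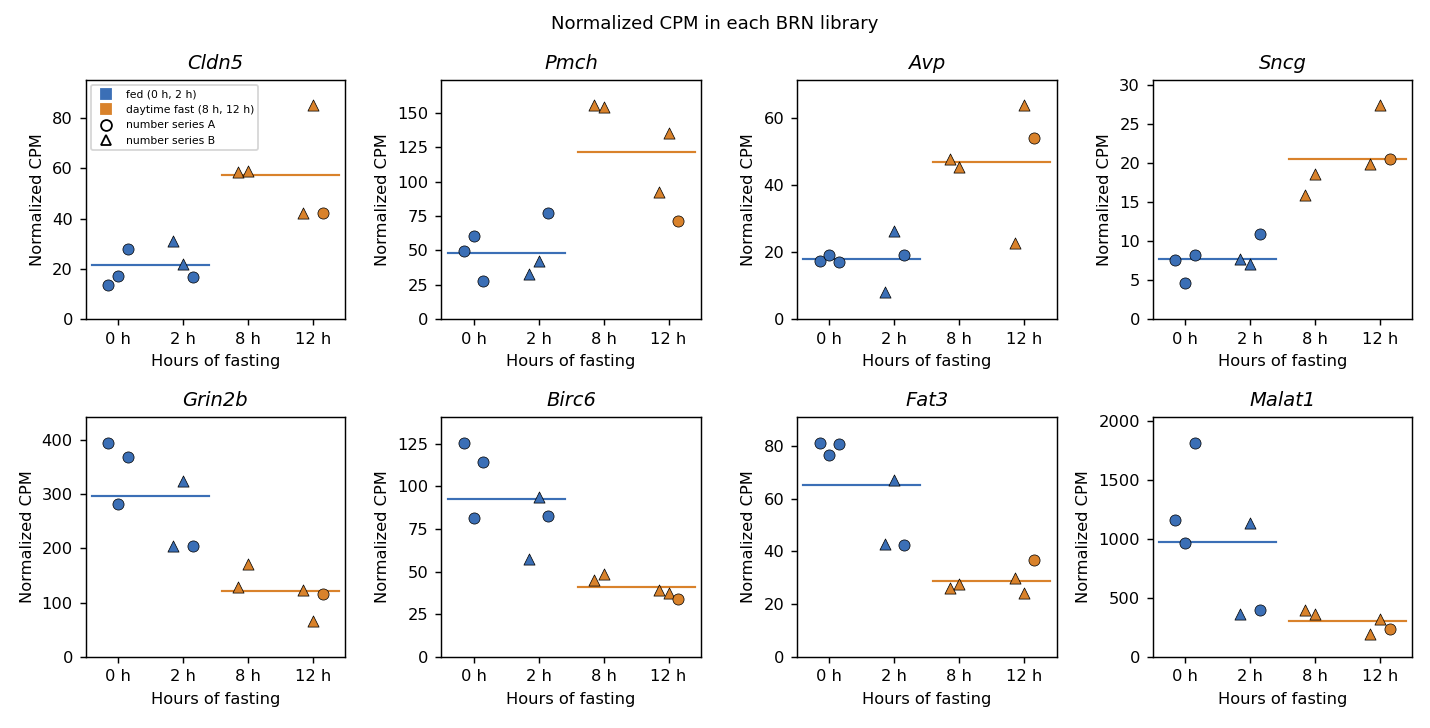
Each plot gives the normalized CPM of 1 gene in the 11 BRN libraries by hours of fasting, on an axis that starts at 0, with circles for library number series A, triangles for series B and lines at the mean of each arm. Cldn5 and Sncg lie higher and Grin2b, Birc6 and Fat3 lower in all 5 daytime libraries than in any fed library, while the arms of Pmch, Avp and Malat1 overlap.

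Cytosolic ribosomal proteins build the translation machinery. Of 82 of their genes kept of 86, 30 were called higher and 0 lower by edgeR, beside 5.28 and 3.93% of all genes. The log2FC lay above 0 for 71, with a median of 0.74 beside -0.03 over all genes. All 5 daytime libraries lay above all 6 fed ones for 15, as for 3.0% of all genes. With length offsets 28 were called higher, beside 4.13% of all genes, at a median of 0.68 beside 0.11. Rpl8 had normalized CPM from 248 to 486 with a median of 331 in the fed libraries and was 611 and 624 at 8 h and 629, 941 and 586 at 12 h. No fed library reached the daytime range, and the log2FC was 0.94 ± 0.17 (SE; edgeR, Benjamini-Hochberg adjusted p = 0.0151). Rplp1, of the ribosomal stalk, was also higher (1.06), as was Rpl4 (0.43). Rpl39 had normalized CPM from 8.96 to 26.8 with a median of 13.8 in the fed libraries and was 42.8 and 60.4 at 8 h and 38.2, 102.05 and 15.2 at 12 h. The third 12 h library lay inside the fed range, and the log2FC was 1.69 ± 0.40 (SE; edgeR, Benjamini-Hochberg adjusted p = 0.0275). The list's median log2FC was 0.62 without the outlying library and 0.56 within series B. The pattern behind the list also took in the ribosomal paralogues Rpl6l and Rpl32l.

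Of the nuclear genes for oxidative phosphorylation, the respiratory chain and ATP synthase, 80 were kept of 82. EdgeR called 38 of them higher and 0 lower, beside 5.28 and 3.93% of all genes, 75 lay above 0, and the median log2FC was 0.71. All 5 daytime libraries lay above all 6 fed ones for 16, as for 3.0% of all genes. With length offsets 24 were called higher, beside 4.13% of all genes, at a median of 0.65. Atp5d, of the ATP synthase, had normalized CPM from 203 to 412 with a median of 293 in the fed libraries and was 541 and 527 at 8 h and 510.4, 955 and 457 at 12 h. Each daytime library lay above the fed range, and the log2FC was 1.02 ± 0.20 (SE; edgeR, Benjamini-Hochberg adjusted p = 0.0166). Uqcr11 of complex III (1.40), Ndufs6 of complex I (1.21) and Cox5b of complex IV (0.96) were higher too, while the longer Atp5b changed less (0.36) and was not called with offsets (0.51, adjusted p = 0.0517). The median of the list was 0.52 without the outlying library and 0.61 within series B.

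Both lists are short genes, with median exonic lengths of 1755 and 1560 bases. Length offsets built on the length of 1 principal transcript per gene were an alternative chosen after seeing the data. They left 23 and 20 genes called higher at medians of 0.53 and 0.51, beside 558 of all 16749 genes and a median of 0.11. Mitochondrially encoded messenger RNAs, which are not spliced and make the core of the same complexes, had a median log2FC of 0.65 over 11 genes with 0 called by edgeR. Their median was 0.41 without the outlying library. The log2FC was 0.65 ± 0.27 (SE; edgeR, Benjamini-Hochberg adjusted p = 0.150) for mt-Cytb of complex III and 0.40 ± 0.22 (SE, adjusted p = 0.273) for mt-Co1, the catalytic subunit of complex IV. Replication-dependent histone genes, whose transcripts lack poly(A) tails, had 12 of 70 kept and 0 called, at a median of 0.30.

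**Figure D3:**
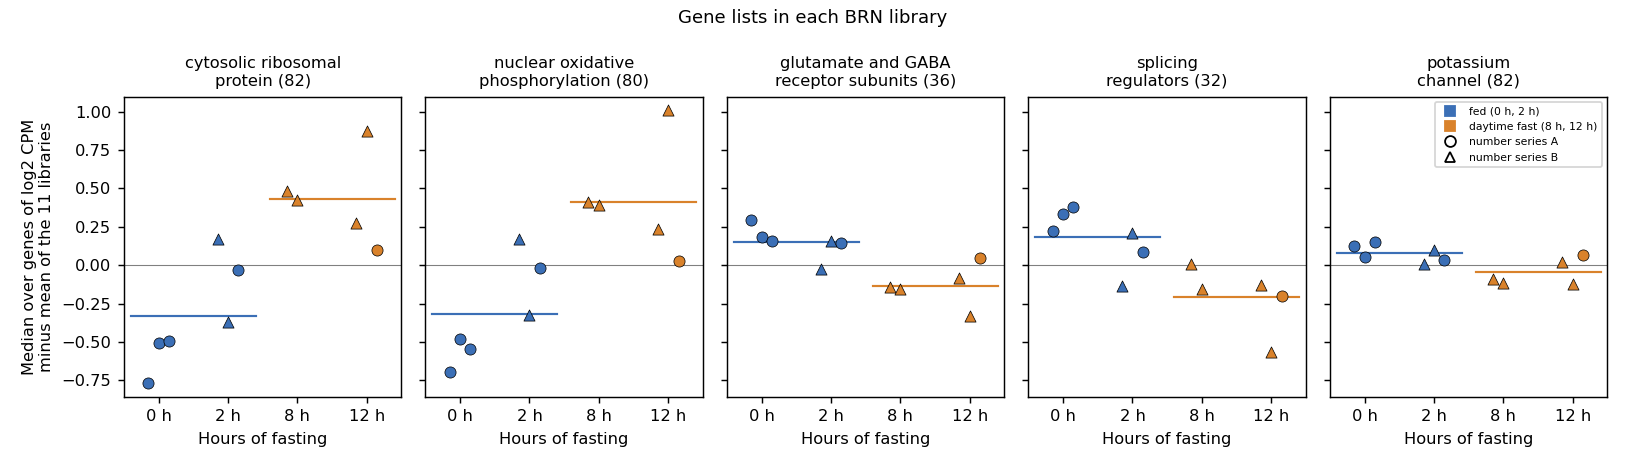
Each plot gives 1 gene list, with the number of genes kept in brackets; each point is a BRN library at the median, over the genes of the list, of log2 CPM minus the gene's mean over the 11 libraries, by hours of fasting. Lines are the means of the arms, circles are library number series A and triangles series B. Ribosomal protein genes in the daytime libraries lie between 0.10 and 0.88, and splicing regulators between -0.56 and 0.01.

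Hypothalamic peptides were the list that bears on hunger most directly. Of 26 feeding neuropeptides kept of 30, 3 were called higher and 0 lower by edgeR, beside 5.28 and 3.93% of all genes. The median log2FC was 0.42, and 0.26 without the outlying library. The list is short, at a median exonic length of 1130.5 bases against 4081 for all genes. With length offsets 1 was called higher, where 4.13% of all genes were, at a median of 0.30 beside 0.11. Principal transcript length offsets left 1 called higher, where 558 of 16749 genes were, at a median of 0.15 beside 0.11. Pmch, the precursor of melanin-concentrating hormone, which promotes feeding, had normalized CPM from 28.04 to 77.3 with a median of 45.7 in the fed libraries and was 155 and 154 at 8 h and 92.3, 135.3 and 71.4 at 12 h. Both 8 h libraries were high, and the third 12 h library lay inside the fed range. Its log2FC was 1.34 ± 0.26 (SE; edgeR, Benjamini-Hochberg adjusted p = 0.0166), 1.05 with length offsets (adjusted p = 0.0385) and 1.29 without the outlying library. Avp, the antidiuretic hormone vasopressin, ranged in normalized CPM from 8.02 to 26.2 with a median of 18.3 in the fed libraries and was 47.8 and 45.2 at 8 h and 22.7, 63.6 and 54.0 at 12 h. Only the first 12 h library overlapped with the fed range, and the log2FC was 1.38 ± 0.26 (SE; edgeR, Benjamini-Hochberg adjusted p = 0.0166), with an adjusted p of 0.0681 under length offsets. Trh, which drives the thyroid axis, had normalized CPM from 8.21 to 16.97 with a median of 13.7 in the fed libraries and was 30.5 and 14.7 at 8 h and 20.7, 43.9 and 22.03 at 12 h. The second 8 h library was inside the fed range, and the log2FC was 1.01 ± 0.26 (SE; edgeR, Benjamini-Hochberg adjusted p = 0.0277), with an adjusted p of 0.0555 without the outlying library.

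The peptides named first for hunger did not pass the test. Npy had a log2FC of 0.49 ± 0.19 (SE; edgeR, Benjamini-Hochberg adjusted p = 0.105), Pomc of 0.33 ± 0.30 (adjusted p = 0.507) and Cartpt of 0.74 ± 0.25 (adjusted p = 0.0622). Agrp was low in most libraries: normalized CPM ranged from 0 to 0.808 with a median of 0.191 in the fed libraries and was 0.523 and 0.140 at 8 h and 0.730, 3.66 and 0.242 at 12 h. Its 1 clear value was in the outlying library, and no fold change is given for it. Oxt, oxytocin, had a log2FC of 1.23 ± 0.39 (SE, adjusted p = 0.0614) and Hcrt, orexin, of 1.04 ± 0.42 (SE, adjusted p = 0.122).

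The summed normalized CPM of 10 hypothalamus markers, all 10 kept and none at 0 in all libraries, was 64.6 to 148 (median 130.5) in the fed libraries, 309 and 259.6 at 8 h and 196, 325 and 225 at 12 h. All 5 daytime sums lay above all 6 fed sums. The most abundant marker was Pmch itself, and 3 of the 10 markers were called higher, beside 5.28% of all genes. The median log2FC was 1.03, and 0.57 without the outlying library. These markers are short, at a median exonic length of 1165.5 bases. With length offsets 1 of the 10 was called higher, beside 4.13% of all genes, at a median of 0.80 beside 0.11. Principal transcript length offsets also left 1 called higher, beside 558 of 16749 genes, at a median of 0.74 beside 0.11. The transcription factors of the list had low levels and were not called: Otp had a log2FC of 0.40 ± 0.48 (SE), Sim1 of -0.86 ± 0.79 (SE) and Nkx2-1 of -0.59 ± 0.52 (SE). In a bulk sample, more cells of a type, or more of a region in the piece taken, and more RNA per cell cannot be told apart. The part of dissection in these values was not tested.

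Of 16 receptors for feeding signals kept of 20, 0 were called higher and 2 lower, where 3.93% of all genes were called lower, at a median of 0.01. Insr, the insulin receptor, had normalized CPM from 36.9 to 54.0 with a median of 44.6 in the fed libraries and was 31.7 and 37.7 at 8 h and 31.7, 33.3 and 30.3 at 12 h. The second 8 h library lay inside the fed range, and the log2FC was -0.48 ± 0.14 (SE; edgeR, Benjamini-Hochberg adjusted p = 0.0419) but -0.01 with length offsets. Cnr1, the cannabinoid receptor, was lower in all 5 daytime libraries than in any fed one (log2FC -0.62 ± 0.14, SE; edgeR, Benjamini-Hochberg adjusted p = 0.0196), and was not called with offsets (-0.38, adjusted p = 0.0953). Of 25 insulin and FoxO genes 1 was called higher and 4 lower, beside 5.28 and 3.93% of all genes, at a median of -0.20. The binding protein Igfbp2 rose (log2FC 0.91, offsets 0.85), and the genes that fell included the receptors Igf1r (-0.83) and Insr and the FoxO target Ccng2 (-0.48). Offsets left Igfbp2 called and none of the 4, and 1 more gene of the list was called higher with them. Of all genes 4.13% were called higher and 0.531% lower with offsets.

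Of 36 glutamate and GABA receptor subunits 1 was called higher and 8 lower by edgeR, beside 5.28 and 3.93% of all genes. The median log2FC was -0.27 beside -0.03 over all genes. In 7 subunits every daytime library lay below every fed one, as in 2.44% of all genes. Besides Grin2a and Grin2b the genes called lower were the AMPA receptor subunits Gria1 (-0.39), Gria2 (-0.69), Gria3 (-0.78) and Gria4 (-0.59), the kainate receptor subunit Grik2 (-0.70) and Gabbr2 of the GABA-B receptor (-0.54). Gabrd, a GABA-A subunit outside synapses, was called higher (0.49), though not without the outlying library (adjusted p = 0.0542). Gria2, which keeps calcium out of AMPA receptors, had normalized CPM from 263 to 445 with a median of 348 in the fed libraries and was 213 and 251 at 8 h and 255, 155 and 249.6 at 12 h. All daytime libraries lay below the fed range, yet with length offsets its log2FC was -0.22 (adjusted p = 0.257). Under those offsets 1 subunit, Gabrd, was called higher and 1, Grin2b, lower, beside 4.13 and 0.531% of all genes, and the median was -0.06.

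Potassium channel genes, which set firing, had 0 of 82 called higher and 9 lower, beside 5.28 and 3.93% of all genes, at a median of -0.14. Kcnma1, the BK channel (-0.49), and Kcnd2 (-0.65) were among them. With length offsets 0 were called by edgeR in either direction and the median was 0.04, as was the log2FC of Kcnma1, both below the 0.11 of all genes.

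Splicing regulators had 0 of 32 called higher and 9 lower, beside 5.28 and 3.93% of all genes, with a median of -0.36 beside -0.03. Pnisr, a nuclear speckle protein, had normalized CPM from 85.4 to 175 with a median of 153 in the fed libraries and was 94.2 and 79.8 at 8 h and 64.7, 46.8 and 71.2 at 12 h. The first 8 h library overlapped with the fed range, and the log2FC was -0.95 ± 0.20 (SE; edgeR, Benjamini-Hochberg adjusted p = 0.0166). Also lower were the speckle scaffolds Son (-0.58) and Srrm2 (-0.69), Srrm1 (-0.52), Rbm25 (-0.70), Luc7l3 (-0.58), Srsf11 (-0.62) and Srsf2 (-0.42). With length offsets only Pnisr of this list was called (-0.59), beside 0.531% of all genes called lower. The list median was then -0.06 beside 0.11 over all genes. Principal transcript length offsets left 3 called lower, beside 90 of all 16749 genes, at a median of -0.17 beside 0.11.

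Nuclear long non-coding RNAs had 1 of 13 kept called higher and 3 lower, beside 5.28 and 3.93% of all genes, at a median of -0.40. With length offsets edgeR called 0 of them, beside 4.13 and 0.531% of all genes. Malat1, an abundant speckle RNA, had normalized CPM from 361 to 1813 with a median of 1049 in the fed libraries and was 399.9 and 364 at 8 h and 190.4, 319 and 237 at 12 h. Fed libraries spread widely, and the first at 2 h and the third at 2 h lay near the daytime ones. Its log2FC was -1.68 ± 0.43 (SE; edgeR, Benjamini-Hochberg adjusted p = 0.0415), with an adjusted p of 0.0851 without the outlying library. Miat (-0.85) and the imprinted host transcript Snhg14 (-0.94) fell and Gas5, a host gene of small nucleolar RNAs, rose (0.72).

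Lists of stress and degradation genes had 2 to 4 genes called higher each, where 5.28% of all genes were. Of 27 genes of the integrated stress response and endoplasmic reticulum 2 were called higher, the transcription factor Ddit3 (log2FC 0.74 ± 0.17, SE; edgeR, Benjamini-Hochberg adjusted p = 0.0180) and the chaperone-like Manf (0.61), and 0 lower, at a median of 0.12. Ddit3 had normalized CPM from 19.7 to 33.5 with a median of 27.3 in the fed libraries and was 41.4 and 52.8 at 8 h and 37.6, 36.9 and 54.7 at 12 h, with no overlap between arms. Heat shock and cold-inducible genes had 3 of 20 called higher, Hspa8 (0.58), Hsp90aa1 (0.54) and the small heat shock protein Cryab (0.63), and 0 lower, at a median of 0.26. The autophagy and lysosome list had 4 of 30 called higher, among them the autophagosome protein Map1lc3a (0.74), the protease Ctsd (0.92) and the cholesterol carrier Npc2 (0.56), and 0 lower, at a median of 0.17. With length offsets Ddit3, Manf, Hsp90aa1, Cryab, Map1lc3a, Ctsd and Npc2 were still called higher, and Hspa8 was not, and with principal transcript length offsets Ddit3 was not called (adjusted p = 0.0957). Without the outlying library Hspa8, Hsp90aa1 and Ctsd were not called.

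Lists tied to activity, hormones, fuel and the clock had few genes called, where 5.28% of all genes were called higher and 3.93% lower. With length offsets these shares of all genes were 4.13 and 0.531%. Of 28 immediate early genes 0 were called by edgeR at a median of -0.11, with 8 above 0, and Fos, which marks recent neuronal activity, had normalized CPM from 5.88 to 45.2 with a median of 25.2 in the fed libraries and was 15.7 and 25.2 at 8 h and 39.3, 19.0 and 17.4 at 12 h. These ranges overlapped fully, at a log2FC of -0.05 ± 0.39 (SE; edgeR, Benjamini-Hochberg adjusted p = 0.952), and Arc had -0.13 ± 0.33 (SE; edgeR, Benjamini-Hochberg adjusted p = 0.846) and Jun -0.39 ± 0.14 (SE; edgeR, Benjamini-Hochberg adjusted p = 0.0811). Of 23 glucocorticoid response genes 1 was called higher, the metallothionein Mt1 (0.79), and 1 lower, the receptor kinase Mertk (-0.76), neither with length offsets, at a median of -0.06. Of 35 fuel switch genes 0 were called by edgeR (1 higher with length offsets) at a median of 0.04, with a log2FC of -0.71 ± 0.32 (SE; edgeR, Benjamini-Hochberg adjusted p = 0.150) for Pdk4, which holds back glucose oxidation, 0.10 ± 0.11 (SE) for the ketone-using enzyme Oxct1 and -0.29 ± 0.11 (SE) for the neuronal glucose carrier Slc2a3. Core clock genes had medians of -0.29 (3 of 22 above 0), -0.18 without the outlying library and -0.01 with length offsets. Of these 0 were called higher and 1 lower, Per3 (log2FC -0.76 ± 0.18, SE; edgeR, Benjamini-Hochberg adjusted p = 0.0197), where the second 8 h library lay inside the fed range, and which was not called with offsets (adjusted p = 0.0896). Of 27 sterol and lipid synthesis genes, at a median of -0.03, 1 was called in each direction: Apoe, the main lipid carrier of brain, rose (0.62, offsets 0.59) and the cholesterol exporter Abca1 fell (-0.74, offsets -0.40), and with offsets 3 of the list were called higher and 0 lower.

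In each list of cell type markers most members were not called, where 5.28% of all genes were called higher and 3.93% lower. The 8 oligodendrocyte markers, all kept, had a summed normalized CPM of 6532 to 14850.0 (median 8296) in the fed libraries, 19940.0 and 18860.0 at 8 h and 12730.0, 14350.0 and 11580.0 at 12 h. The 8 h libraries were highest and the arms overlapped through the first 2 h library and the third 2 h library. Mbp was the most abundant, all 8 markers had a log2FC above 0, and 2 were called higher, among them Mag (log2FC 0.34), and without the outlying library edgeR called neither. The 7 endothelium markers, which include Cldn5, summed to 129 to 258 (median 153) in the fed libraries, 300.5 and 270.3 at 8 h and 218, 332 and 177 at 12 h, with Itm2a the most abundant. Apart from the first 2 h library, the fed sums lay under every daytime sum. Cldn5 was the 1 endothelium marker called, Flt1 (-0.35) and Slco1a4 (-0.25) lay below 0, and the part of vessel content in its result was not tested.

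Astrocyte markers, led by Slc1a2, summed to 3265 to 4679 (median 3811) in the fed libraries, 4575 and 4522 at 8 h and 3936, 4708 and 4254 at 12 h, and Gfap (0.60), S100b (0.71) and Aldoc (0.56) of 8 were called higher, while Slc1a2 itself (-0.26, adjusted p = 0.0839) and Aqp4 (-0.15) lay below 0. These sums overlapped between arms. Microglia markers, led by C1qb, summed to 301 to 453 (median 357) in the fed libraries, 419.5 and 406 at 8 h and 445, 655 and 447 at 12 h, and 3 of 10, Aif1 (0.82), C1qa (0.70) and C1qb (0.72), were called higher, none with length offsets. Without the outlying library Aif1 and C1qb were not called (adjusted p = 0.0843 and 0.0623), and Cx3cr1 (-0.19), P2ry12 (-0.23) and Csf1r (-0.03) lay below 0 with all libraries. The outlying library held the highest sum. Of 11 neuron markers, led by Snap25 and summing to 6640.0 to 7154 (median 6758) in the fed libraries, 5790.0 and 5691 at 8 h and 6952, 6121 and 6800.0 at 12 h, 2 were called lower, the vesicle calcium sensor Syt1 (-0.44) and Gad2, which makes GABA (-0.56), and neither with offsets. Tubb3 (0.23), Eno2 (0.12) and Stmn2 (0.12) were the 3 neuron markers above 0. Blood markers, led by Hbb-bs, summed to 46.5 to 373 (median 103.9) in the fed libraries, 230.3 and 315 at 8 h and 181, 600.2 and 117.2 at 12 h, with 0 of 5 called by edgeR at a median log2FC of 0.76. Their range within each arm was wide, the outlying library was the highest, and without it the median log2FC was 0.23.

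Of the remaining lists 1 of 7 mural cell markers (Vtn, log2FC 0.60, adjusted p = 0.0702 with length offsets and 0.0626 without the outlying library) and 1 of 8 meninges markers (Col3a1, 1.23) were called higher, beside 5.28% of all genes, and with length offsets 0 mural cell and 3 meninges markers were, beside 4.13%. EdgeR called 0 of 5 oligodendrocyte precursor, 6 ependyma, 10 choroid plexus, 2 pituitary, 2 neutrophil and 3 skeletal muscle markers kept, at medians of -0.16, 0.51, -0.34, -1.20, 0.06 and 0.39. Choroid plexus markers, led by Ttr, summed to 496 to 1209 (median 862) in the fed libraries, 1364 and 915 at 8 h and 879.8, 1372 and 901 at 12 h, with overlap. Of 10 pituitary markers 1 was at 0 in all 11 libraries. The part of cell content in the results for these gene groups was not tested.

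Markers of the regions that BRN should hold were present in each library. Their calls stand beside 5.28% of all genes called higher and 3.93% lower, and 4.13 and 0.531% with length offsets. Cortex markers, led by Lamp5, summed to 528 to 676 (median 627) in the fed libraries, 456 and 506 at 8 h and 623, 481 and 579 at 12 h, with 0 of 7 called by edgeR. Striatum markers had 1 of 7 called lower, Pde10a (log2FC -1.31 ± 0.29, SE; edgeR, Benjamini-Hochberg adjusted p = 0.0215), which stayed called with length offsets (-0.86) and lay lower in all 5 daytime libraries, but was not called without the outlying library (adjusted p = 0.0709). Hippocampus markers had 0 of 7 called by edgeR at a median of 0.29. Thalamus markers had Calb2 called higher (0.54) and Prkcd (-0.97) and Plekhg1 (-0.87) lower of 7, none with offsets. Without the outlying library edgeR did not call Calb2 and Plekhg1 (Benjamini-Hochberg adjusted p = 0.0948 and 0.0554). Markers of the regions that were dissected off were counted too. Cerebellum markers were led by Calb2, which the thalamus list holds too and which alone of the 9 kept of 10 was called. The 10 summed to 125.9 to 188 (median 148) in the fed libraries, 192 and 134.5 at 8 h and 172, 209 and 224 at 12 h. Of 10 brainstem markers 4 were kept, and 2 of the others were at 0 in all 11 libraries. Led by Tph2, the 10 summed to 2.28 to 24.6 (median 9.53) in the fed libraries. Their sums were 19.8 and 14.4 at 8 h and 35.5, 10.97 and 48.9 at 12 h. The 6 olfactory bulb markers, of which 5 were kept, were led by Th. These 6 summed to 28.6 to 54.0 (median 35.6) in the fed libraries, 51.8 and 25.8 at 8 h and 40.1, 92.5 and 37.8 at 12 h. EdgeR called 0 of the 4 brainstem and 5 olfactory bulb markers kept, at median log2FC values of 0.91 and 0.02. The sums of all 3 lists overlapped between arms, and the part of dissection was not tested.

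Split by time, each group shared the same 6 fed libraries, so that their values are given side by side and not compared. At 8 h edgeR called 108 genes higher (0.645%) and 18 lower (0.107%), and at 12 h 906 higher (5.41%) and 450 lower (2.69%). With 2 libraries at 8 h and 3 at 12 h the groups differ in size. Ribosomal protein genes had 8 called higher at 8 h and 32 at 12 h, at medians of 0.75 and 0.78, and oxidative phosphorylation genes 10 and 43, at medians of 0.69 and 0.79. Cldn5 had a log2FC of 1.45 at 8 h and 1.38 at 12 h, Birc6 of -0.97 and -1.31. With length offsets edgeR called 0 genes at 8 h (1974 at an unadjusted p under 0.05; DESeq2 without offsets called 581 higher and 339 lower), and 1130 higher and 80 lower at 12 h. DESeq2 called 1372 higher and 975 lower at 12 h.

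Within the fed arm, the 3 libraries at 0 h are of series A and 2 of the 3 at 2 h of series B. Of the libraries at 2 h against those at 0 h edgeR called 0 genes, with 1427 at an unadjusted p under 0.05, and DESeq2 called 3 higher and 1 lower. The median log2FC over genes of up to 500 bases was 0.56 and over genes of more than 8000 bases -0.21, and this trend was not tested against that of the daytime arm. For 18 h and 22 h, fasts that began in the night before, 5 retained libraries were set against the same fed libraries in 1 fit of the 3 arms, an alternative chosen after seeing the data, and 728 genes were called higher (4.35%) and 346 lower (2.07%). All 5 late libraries are of series B, which holds 2 of the 6 fed libraries, and this fit takes no account of the series. In that fit 454 genes were called in the daytime arm, 320 of them higher. Sncg had a log2FC of 1.29 in the late arm, Cldn5 of 0.64 (adjusted p = 0.107), Pmch of 1.47 and Grin2b of -1.18.

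The same mice gave OB, CBL and BST, and the BRN effect was compared with theirs. With the same arms edgeR called 3 genes higher and 2 lower in OB, 0 in CBL (1697 at an unadjusted p under 0.05) and 1 higher and 5 lower in BST, and DESeq2 was not run there. Ribosomal protein genes had median log2FC values of -0.06 in OB, 0.02 in CBL and -0.11 in BST, against 0.74 in BRN, and oxidative phosphorylation genes of -0.07, 0.09 and -0.01, against 0.71. Splicing regulators had medians of 0.05 in OB, -0.23 in CBL and -0.04 in BST, against -0.36 in BRN. For nuclear long non-coding RNAs they were -0.02, -0.22 and -0.01, against -0.40. Cldn5 had a log2FC of -0.26 in OB, 1.00 in CBL (adjusted p = 0.109) and 0.21 in BST. The difference in tilt between arms was 0.0332 in OB, -0.00767 in CBL and 0.0126 in BST (two-sided exact permutation p = 0.0433, 0.693 and 0.331), and in BRN minus the mean of the other organs of the same mouse it was -0.179 (exact permutation p = 0.00866). BRN and BST libraries come from 2 number series each and OB and CBL libraries from 1 each, the series of BRN are uneven between arms, and the comparison takes no account of this. With animal as a block, edgeR called 5796 genes (34.6%) whose BRN effect differed from the mean of the others. That fit shares 1 spread per gene over organs, and the common biological coefficient of variation within arms was 25.4% in BRN beside 9.09% in OB, 9.69% in CBL and 8.29% in BST. Taken on the 11 differences within mice, an alternative chosen after seeing the data, limma called 2 genes (0.0119%), with 4544 at an unadjusted p under 0.05. Of the named genes, Sncg had the within-mouse difference of 1.31 (limma, Benjamini-Hochberg adjusted p = 0.0527).

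Among called genes the largest fold changes were in low transcripts. In the 11 libraries Gchfr, Capn11 and mt-Ty reached 1.23 CPM, the level of the filter, only after the daytime fast. The 5 lower genes named here reached it only in the fed state. Among these libraries each met the filter only in the arm where it was high, so that its call and fold are given as a description. Gchfr, the feedback regulator of tetrahydrobiopterin synthesis, had normalized CPM from 0 to 0.929 with a median of 0.503 in the fed libraries and was 1.44 and 2.66 at 8 h and 2.80, 4.39 and 3.63 at 12 h. The daytime libraries all lay above the fed ones, most of which held few counts, and the log2FC was 2.50 ± 0.62 (SE). Efcab10 (1.98) and the mitochondrial transfer RNAs mt-Tt (2.61) and mt-Ty (2.81) overlapped between arms. Capn11, a calpain known from testis, had a log2FC of 3.50 that rested on the third 12 h library (6.29 normalized CPM) and both 8 h libraries (2.49 and 1.68), with 0.122 and 0 in the others. Among the lowest, Glcci1, named for its response to glucocorticoid, had normalized CPM from 0.676 to 4.40 with a median of 1.16 in the fed libraries and was 0.523 and 0 at 8 h and 0, 0 and 0 at 12 h. It was at 0 in 4 of 5 daytime libraries, where the floor of 3 counts lies at 0.364 to 0.952 CPM, so that its fitted log2FC of -3.50 is no bound. Scel (-3.05), Dynlt1f (-2.62), Pcdha6 (-3.09) and Prkag2os2 (-4.22) were likewise near or at 0 after the daytime fast, and their log2FC values, like those of Gchfr, Capn11 and mt-Ty, whose fed libraries held few counts, depend on the prior count.

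Promoters were read for the ribosomal and oxidative phosphorylation genes, the lists with the most genes called higher. Promoter windows of 300 bases around the start, credited to RefSeq on GRCm38.p6, were matched by symbol for 60 and 65 of the kept members and searched on both strands for TGACGTCA (the cyclic AMP response element), CACGTG (the E-box) and GTAAACA (the forkhead site). TGACGTCA was in 6 of 60 ribosomal promoters (10.0%) and 4 of 65 oxidative phosphorylation promoters (6.15%), against 3.2% of 11660 promoters of genes tested and 1.88% of all 27025. CACGTG was in 8.33 and 7.69%, against 9.84% of genes tested, and GTAAACA in 1.67 and 1.54%, against 2.38%. A match describes letters and is no evidence of binding. Of the called genes with TGACGTCA, 3 are shown, with the motif in capitals: Rpl13 (log2FC 1.36, chr8:123102100-123102399, plus strand), Rpl27a (0.74, chr7:109518945-109519244, plus strand) and Ndufa11 (0.97, chr17:56717512-56717811, plus strand).
Rpl13: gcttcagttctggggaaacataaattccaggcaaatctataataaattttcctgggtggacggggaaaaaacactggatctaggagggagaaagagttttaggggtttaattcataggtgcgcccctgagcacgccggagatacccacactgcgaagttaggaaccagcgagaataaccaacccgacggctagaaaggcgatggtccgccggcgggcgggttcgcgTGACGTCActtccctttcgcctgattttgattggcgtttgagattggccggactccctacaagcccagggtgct
Rpl27a: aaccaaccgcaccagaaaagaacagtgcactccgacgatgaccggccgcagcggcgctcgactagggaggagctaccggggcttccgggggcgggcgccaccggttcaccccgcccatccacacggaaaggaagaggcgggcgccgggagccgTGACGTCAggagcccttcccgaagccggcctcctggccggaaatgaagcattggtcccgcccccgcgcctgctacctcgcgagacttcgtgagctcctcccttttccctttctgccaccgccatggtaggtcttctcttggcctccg
Ndufa11: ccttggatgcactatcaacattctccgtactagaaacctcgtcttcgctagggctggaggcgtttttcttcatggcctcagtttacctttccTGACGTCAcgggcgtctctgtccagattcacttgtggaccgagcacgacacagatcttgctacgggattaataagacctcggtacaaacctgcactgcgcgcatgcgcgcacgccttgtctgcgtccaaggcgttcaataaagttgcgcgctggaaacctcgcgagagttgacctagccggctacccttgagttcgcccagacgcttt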

How the data were processed

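Poly(A) RNA was sequenced as stranded libraries. The authors aligned the reads with TopHat2 2.1.1 to GRCm38.p5, counted them over Gencode M16 genes with HTSeq 0.9.1 and deposited the counts, unnormalized. The counts of 72 nervous system libraries were read, 90 columns of other organs were not used, and 2 BRN libraries with very few counts were left out, except that 1 alternative added the 8 h one. Genes were kept where at least 3 of 16 BRN libraries reached 1.23 CPM (10 counts at the median library size). The arms were tested with edgeR 4.0.16 (TMM factors, robust quasi-likelihood F test, R 4.3.3), with Benjamini-Hochberg adjustment over all genes, and with DESeq2 1.42.0 as the alternative. Each SE is the log2FC divided by the root of F. Length offsets are smoothing splines (5 degrees of freedom) of each library's deviations on log2 exonic length, from Gencode M21, which matched 49704 of 53686 symbols, and 16423 of the 16749 genes tested. Organs were compared within mice with edgeR and limma 3.58.1, matched by the animal numbers of the labels. Libraries standing apart were found with Dixon's 95% values. Tilts were compared by exact permutation tests in R, and counts and gene lengths were prepared with Python 3.11.15. The fits were tested on simulated data.

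Genes named are the 10 in each direction with the smallest p, the 10 called also with length offsets and with the series as covariate (none met this, so that the 10 called with and without offsets were listed after their values were seen), the 5 with the largest fold in each direction, and members of the lists. Gm, Rik and accession-like symbols were passed over, 4 among the genes with the smallest p that were lower and 2 and 21 among the largest folds higher and lower. Alternatives varied the tool, scaling, filter, blocks, covariates, length correction and libraries, and those called chosen after seeing the data were added then. Members and lists were chosen with earlier results of these data known. In 26 rows of the table a date stands in place of a symbol, and none is named.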

Additional observations from a re-analysis of the deposited data

Results flagged for a closer look

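A library far from the others of its arm was looked for in 340 groups of values and found in 33, where chance gives about 1 in 20 groups. The second 12 h library accounts for most: its GC slope was 0.329, and its summed normalized CPM was 654.7 for microglia markers, 8.41 for neutrophil markers and, on the low side, 90.3 for meninges markers. Its normalized CPM stood far above the other daytime libraries for Ap2s1 (421.7), Clpp (136.4), Ndufb7 (251.6), D8Ertd738e (184.0), Agt (171.2), Cartpt (74.2), Agrp (3.66), Hspa8 (391.4), Ctsd (800.3), Rpl8 (941.1), Rpl13 (82.7), Rpl14 (406.7), Ndufs6 (259.3), Atp5d (955.0), Aldoc (1994.0) and C1qb (175.2), and far below them for Prrc2c (37.3), Per3 (23.8) and Gria3 (46.1).

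The first 2 h library stood apart from the fed arm in the summed normalized CPM of endothelium markers (257.8) and pituitary markers (21.2), and low for Grin2a (101.6). The skeletal muscle markers of the first 0 h library summed to 8.82, and Glcci1 was at 4.40 in the second 0 h library. In the daytime arm Glcci1 was at 0.523 in the first 8 h library and at 0 elsewhere, Prkag2os2 at 0.122 and Pcdha6 at 0.608 in the first 12 h library and at 0 elsewhere. Son was low in the second 8 h library (168.2), and the median deviation of fuel switch genes was -0.0681 in the third 12 h library.

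Differences between organs under the same contrast were found by tests of the difference. The length tilt, daytime minus fed, was -0.179 in BRN relative to the other 3 organs, without account of the number series. On differences within mice limma called AC107711.1 (-4.36) and Gm17875 (-3.17), both named after their values were seen.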

How the results depend on the processing

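The edgeR count of 1543 genes called (DEGs 1.66% of genes tested) moved with the processing, and unless the setting itself used fewer libraries, the cause was not tested. With DEGs in brackets as a percent of genes tested, DESeq2 gave 2752 (2.73%), the series as covariate 0 (0%), the lane as covariate 0 (0%), only series A 0 (0%), only series B 0 (0%), length offsets 780 (0.776%), the tilt as covariate 0 (0%), length offsets with replicate block 0 (0%), and adding the 8 h library of 130701 counts 0 (0%). For 12 h against 0 h alone the DEGs were 4.66%. Where edgeR called 0, 3568 genes had an unadjusted p under 0.05 with lane (DESeq2 called 677 higher and 499 lower) and 3568 with offsets and block, and 2983 with the added library (DESeq2 not run for these). Of the alternatives chosen after seeing the data, DESeq2 with length offsets gave 1811 (1.89%), principal transcript length offsets 648 (0.681%), with GC added 421 (0.513%), centred length offsets 460 (0.418%), DESeq2 with the series 424 (0.275%), DESeq2 within series B 7 (0.0418%) and 3 arms in 1 fit 454 (0.639%). Leaving out 1 library at a time gave 0 to 2833 genes called and DEGs of 0 to 4.42%, and with length offsets 0 to 1478 genes called.

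The genes called at 8 h became 0 with length offsets by edgeR (1974 at an unadjusted p under 0.05) and 920 with DESeq2, the 1356 at 12 h became 2347 with DESeq2, and at 2 h against 0 h the 0 of edgeR became 4 with DESeq2. The 5796 genes whose effect differed between organs became 2 on within-mouse differences and 2 with length offsets there. The tilt of -0.168 was -0.113 within series B. The counts stayed within 1.5 times with DESeq2 size factors, upper quartile factors, no low count filter and a filter met in all 11 libraries.

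With replicate number as a block (replicate block) edgeR gave 358 (0.525%). The 15 pairs of libraries with the same number, 10 of them between arms and 5 within an arm, correlated at -0.131 to 0.103 and other pairs at -0.128 to 0.152, and 3 of 11 libraries correlated best with their own number.

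Log2FC values with a changed sign were as follows, and the cause was not tested. With principal transcript length and GC offsets Grin2a 0.0228, Pomc -0.0181, Insr 0.110, Gria2 0.0668, Son 0.000780 and Slc2a3 0.00392, with the tilt as covariate Npy -0.0219, Nkx2-1 0.518, Hsp90aa1 -0.0732, Gas5 -0.0589, mt-Co1 -0.147, mt-Cytb -0.212, Oxct1 -0.0427 and Rpl27a -0.0438, with principal transcript length offsets Insr 0.0411 and Arc 0.0321. With length offsets Kcnma1 0.0437 and Slc2a3 0.0109, with length offsets and replicate block Kcnma1 0.0372 and Slc2a3 0.00755, by DESeq2 with length offsets Kcnma1 0.0415 and Slc2a3 0.00852. Within series B Fos 0.000250 and Oxct1 -0.00499, by DESeq2 without the second 0 h library Fos 0.202, with the 8 h library of 130701 counts added Oxct1 -0.0603. By DESeq2 within series B Oxct1 -0.00287. The median of all genes was 0.108 with length offsets, 0.102 with the block added, 0.107 by DESeq2, 0.114 with principal transcript length offsets and 0.110 with GC added, and the values above 0 given for these offsets lay at or under it. With length offsets and libraries centred on the median gene 0 named genes changed sign. Without 1 library at a time the log2FC ranged from -0.340 to 0.202 for Fos and from -0.331 to 0.0461 for Arc.

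Over the named genes and the alternatives, 4292 pairs gave 2492 with the same direction and side of the threshold, 1755 that lost the call, 14 that gained it and 31 with a changed sign. Depth limits transcripts under about 1 CPM, where 3 counts equal up to 0.952 CPM.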
